A study of Mus musculus with 12 samples.

Results

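The 10 imprinted genes described here, that is, genes transcribed from 1 parental allele, were followed through sorted metaphyseal osteoblasts of 3-week-old, 8-week-old and *c-Myc*-expressing mice. The genes were *H19*, *Dlk1*, *Meg3*, *Rian*, *Peg3*, *Plagl1*, *Grb10*, *Mest*, *Cdkn1c* and *Ndn*. They were chosen by gene name as imprinted genes known to fall in level after birth, and each of the 10 was found once among the 32288 genes and transgenes counted. RNA-seq was performed on 12 libraries of mGFP+ cells in 4 groups. The 4 libraries of juvenile *Osx*+ osteoblasts came from 3-week-old and the 4 of adult *Osx*+ osteoblasts from 8-week-old *Osx-CreERT2*; *mTmG* mice. Each of these control libraries pooled the long bones of 2 male mice, and the shaft was cut 2 mm from the growth plate. The 2 libraries of *c-Myc*-induced osteoblasts came from mice that also carried *LSL-tTA* and *Col1a1::TetO–c-Myc*, in which Cre turns on the tTA activator and tTA turns on *c-Myc*, and the 2 of *c-Myc* + *R172H* osteoblasts from mice with *Trp53-LSL-R172H* in addition, which encodes a mutant p53. All 4 groups received tamoxifen and carried the *Osx*-driven Cre and the *mTmG* reporter, which turns on membrane GFP where Cre has acted, so a labelled cell is one in which *Osx* was active or its descendant. The induced mice were of both sexes by the methods of the study, although the study elsewhere names only males for RNA-seq, so their sex may or may not match the controls. They were taken 7 days after tamoxifen, are titled 3 weeks but called 5 weeks old in the dissection notes, and were cut at 5 mm. Per the study, controls were collected 2 days after the last of 3 daily tamoxifen treatments, and induced mice had 2 consecutive treatments. The inducible mice or pregnant females were also given doxycycline or tetracycline in drinking water, stopped 2 weeks or 1 week before analysis. Age at dissection, cut, any difference in sex, tamoxifen schedule, doxycycline or tetracycline, interval and transgenes therefore cannot be told apart from *c-Myc* in any comparison of induced with control cells.

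Imprinted genes carry DNA methylation marks set in the egg or the sperm, so that only the maternal or only the paternal copy is read. Many act on growth of the fetus and the young animal: as a rule, paternally expressed genes promote growth and maternally expressed genes restrain it. In many mouse organs a set of them is silenced together over the first weeks of life as growth slows. *H19*, *Meg3*, *Rian*, *Cdkn1c* and, in most tissues, *Grb10* are read from the maternal copy, and *Dlk1*, *Peg3*, *Plagl1*, *Mest* and *Ndn* from the paternal copy. The counts do not separate the parental alleles.

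The members lie in several imprinted domains of GRCm38. *Dlk1* (chr12:109452823-109463336), *Meg3* (chr12:109541001-109571726) and *Rian* (chr12:109603940-109661716) share a domain on the plus strand of chromosome 12, where *Meg3* and *Rian* are long noncoding RNAs that host small RNAs. *H19* (chr7:142575529-142578143, minus strand) is a long noncoding RNA beside *Igf2*, and *Cdkn1c* (chr7:143458339-143461050, minus strand) lies in the neighbouring domain of chromosome 7. *Peg3* (chr7:6703892-6730431, minus strand) and *Ndn* (chr7:62346569-62350262, plus strand) are elsewhere on chromosome 7, *Mest* (chr6:30723547-30748465, plus strand) is on chromosome 6, *Plagl1* (chr10:13060504-13131694, plus strand) on chromosome 10 and *Grb10* (chr11:11930508-12038683, minus strand) on chromosome 11. The spans are whole annotated genes, and reads in their exons were counted. *H19*, *Meg3*, *Plagl1*, *Mest*, *Cdkn1c* and *Ndn* overlap annotated genes of the opposite strand, and the strand setting of the counting is not stated, so their counts could include reads of those partners. *H19*, *Meg3*, *Mest* and *Rian* also overlap annotated genes of the same strand, 19 of them for *Rian*. How reads shared by such genes were counted is not stated, so the counts of these 4 could miss reads. *Copg2*, which overlaps *Mest*, was at 14.4 ± 0.801 CPM (SD, n = 4) in juvenile cells and 13.7 ± 1.25 CPM (SD, n = 2) with *c-Myc*, where CPM are counts per 1000000 of the scaled library.

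The 250 bases before a RefSeq start are shown for *Meg3* and *Rian*, which differed most between the ages, and for *Peg3* and *Plagl1*, zinc-finger factors that were low in induced cells. RefSeq promoters of GRCm38.p6 were at hand for 8 of the 10 members. The windows are chr12:109540746-109540995 (plus strand) for *Meg3*, chr12:109603695-109603944 (plus strand) for *Rian*, chr7:6730420-6730669 (minus strand) for *Peg3* and chr10:13090582-13090831 (plus strand) for *Plagl1*, the last inside the annotated span of the gene. Capitals mark matches on either strand to TATAAA, to GGGGCCCC, the core of a PLAGL1 site, or to CACGTG, the E-box that MYC can bind.
Meg3: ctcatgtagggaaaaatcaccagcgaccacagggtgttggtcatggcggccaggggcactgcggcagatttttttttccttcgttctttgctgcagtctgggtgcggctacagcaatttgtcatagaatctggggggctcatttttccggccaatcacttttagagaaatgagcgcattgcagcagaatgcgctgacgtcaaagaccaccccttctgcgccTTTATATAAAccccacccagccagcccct
Rian: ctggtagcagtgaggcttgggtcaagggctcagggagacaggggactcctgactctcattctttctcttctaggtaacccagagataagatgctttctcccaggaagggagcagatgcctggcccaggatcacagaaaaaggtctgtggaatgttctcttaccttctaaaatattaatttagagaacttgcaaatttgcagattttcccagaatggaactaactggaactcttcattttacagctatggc
Peg3: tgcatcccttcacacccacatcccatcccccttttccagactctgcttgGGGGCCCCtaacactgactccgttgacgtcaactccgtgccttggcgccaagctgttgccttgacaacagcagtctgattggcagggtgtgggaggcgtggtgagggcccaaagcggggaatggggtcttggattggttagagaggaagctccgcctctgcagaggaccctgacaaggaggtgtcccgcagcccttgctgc
Plagl1: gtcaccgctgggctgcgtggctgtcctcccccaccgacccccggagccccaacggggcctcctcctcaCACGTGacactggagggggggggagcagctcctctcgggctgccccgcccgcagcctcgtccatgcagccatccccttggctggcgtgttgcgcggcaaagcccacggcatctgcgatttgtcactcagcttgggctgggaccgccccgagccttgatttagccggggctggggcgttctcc
Of the 8 members with a window, *Meg3* alone held TATAAA, with matches on both strands that overlap, starting 29 and 25 bases before the start, where 12.4% of 32851 windows in the table held it. *Peg3* alone held GGGGCCCC, 201 bases before the start (0.889% of windows), and *Plagl1* alone held CACGTG, 182 bases before the start (6.02% of windows). No member window held GACCACCCA, a GLI site (0.225% of windows). The windows differed in CpG, the dinucleotide that carries methylation: *Rian* had 0, *Peg3* 8, the *Meg3* window shown 10, *Plagl1* 19 and the upstream *Grb10* window 40 CpG, beside a median of 6 over all windows. A further *Meg3* window, chr12:109545148-109545397 (plus strand), had 0 CpG and no match to these motifs. These matches are letters in a window and not measured sites.

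The libraries held from 9066154 to 15684412 counts. The sorted cells had the markers of osteoblasts, with 11 osteoblast genes summing to 566000 to 829000 CPM in juvenile, 340000 to 611000 in adult, 102000 to 134000 in *c-Myc* and 57800 to 59900 CPM in *c-Myc* + *R172H* libraries. *Myc*, the gene expressed by the transgene, was at 39.2 to 51.8 CPM in control and at 638 to 766 CPM in induced libraries. Markers of muscle and endothelium each summed to at most 3.21 CPM in every library, and those of blood to at most 11.4 CPM. Markers of cartilage were present in controls, although growth plate chondrocytes were removed under a stereomicroscope: 11 cartilage genes, led by the collagen gene *Col2a1*, summed to 8850 to 26700 CPM in juvenile, 34800 to 128000 in adult, 359 to 581 in *c-Myc* and 170 to 177 CPM in *c-Myc* + *R172H* libraries, and none of the 11 was at 0 in any group. They were highest in adult replicates 1 and 4 (128000 and 76100 CPM) and, among controls, lowest in juvenile replicate 4 (8850 CPM). In bulk RNA, fewer cells of a type and less RNA per cell cannot be told apart.

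**Figure D1:**
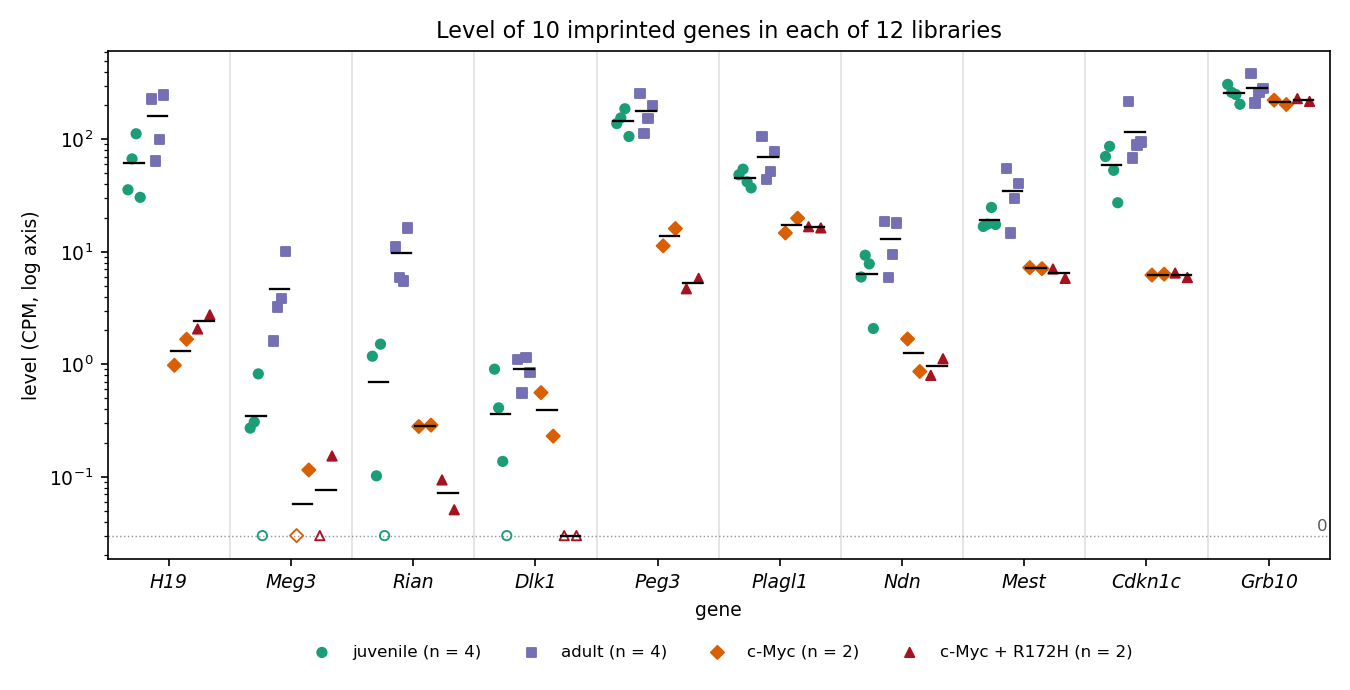
Level in CPM (log axis) of the 10 imprinted genes in each of 12 libraries. Points are libraries, colored by group (juvenile and adult, n = 4 each; *c-Myc* and *c-Myc* + *R172H*, n = 2 each), bars are group means, and open points on the dotted line are libraries with 0 counts. *H19*, *Peg3*, *Plagl1*, *Ndn*, *Mest* and *Cdkn1c* sit lower in the 4 induced libraries than in any control library, *Meg3* and *Rian* sit highest in adult libraries, and *Grb10* sits between 204 and 382 CPM throughout. The share of all genes with such separation was not counted.

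Levels of the members spanned several orders of magnitude in juvenile *Osx*+ osteoblasts. Per kilobase of exon, *Cdkn1c* (29.1 ± 12.4 CPM per kb, SD, n = 4), *Grb10* (28.2 ± 4.67) and *H19* (24.9 ± 15.2) stood highest and lay within each other's spread. *Peg3* (11 ± 2.53 CPM per kb) followed, within the spread of *H19*, then *Plagl1* (5.81 ± 0.965) and *Mest* (4.87 ± 0.954), whose spreads overlapped, and *Ndn* (1.71 ± 0.847). *Dlk1* (0.0641 ± 0.0705), *Rian* (0.0382 ± 0.0416) and *Meg3* (0.0194 ± 0.019 CPM per kb) were at the limit of detection and did not differ beyond their spread. In *c-Myc*-induced osteoblasts *Grb10* (23.5 ± 1.45 CPM per kb, SD, n = 2) stood well above the next member, *Cdkn1c* (3.07 ± 0.0429).

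To ask whether the members fall between 3 and 8 weeks, juvenile were compared with adult *Osx*+ osteoblasts. None of the members was called higher in juvenile cells. *Meg3* and *Rian*, the noncoding RNAs of the chromosome 12 domain, were called lower in juvenile than in adult cells, and the other 7 members tested were not called. So 0 of 9 tested members were higher and 2 lower in juvenile cells at an adjusted p under 0.05 (edgeR's quasi-likelihood test with Benjamini-Hochberg adjustment over all genes), where 1.89% of 11345 genes tested were called higher and 3.23% lower. All 9 fitted log2 fold changes (juvenile over adult) were below 0, with a median of -0.99 beside 0 over all genes. A fall from 3 to 8 weeks, for which the genes were chosen, was thus not called for any member. *Meg3* and *Rian* were tested only through the adult libraries, where they are high, and 0 members were called with at least 10 counts in every library, so nothing is read from the 2 lower calls against the background.

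*Rian* was counted in juvenile libraries 13, 1, 11 and 0 times and in adult libraries 110, 53, 43 and 155 times. In CPM this was 1.18, 0.102, 1.51 and 0 in juvenile and 11, 5.91, 5.5 and 16.3 in adult cells, so the groups did not overlap. The log2 fold change was -3.8 ± 0.71 (SE), a 13.9-fold lower level in juvenile cells (edgeR adjusted p = 0.0098). *Meg3*, its neighbour and a growth-restraining RNA, was counted 3, 3, 6 and 0 times in juvenile and 16, 29, 30 and 95 times in adult libraries. Its levels were 0.271, 0.307, 0.822 and 0 CPM in juvenile and 1.61, 3.23, 3.84 and 10 CPM in adult cells, again without overlap. The log2 fold change was -3.74 ± 0.79 (SE), 13.4-fold lower in juvenile cells (edgeR adjusted p = 0.0115). Both genes passed the filter on low counts through the adult libraries, so a difference was built into their being tested. The 0 counts of juvenile replicate 4 allow up to 3 counts, or 0.367 CPM.

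Both calls were lost without the 2 adult libraries richest in cartilage RNA, which leaves fewer samples, and when the cartilage markers were fitted. Without adult replicates 1 and 4 the log2 fold change of *Rian* was -3.02 (adjusted p = 0.107) and that of *Meg3* -3.33 (adjusted p = 0.133), and with the cartilage marker level as a covariate they were -2.49 (adjusted p = 0.28) and -2.99 (adjusted p = 0.334). Leaving out adult replicate 4 alone ended the call of *Meg3* (log2 fold change -3.04, adjusted p = 0.0935). The part of cartilage RNA in these differences was not tested.

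The third gene of the domain, *Dlk1*, which encodes a Notch-related membrane protein that holds back the maturation of adipocytes and other mesenchymal cells, was barely detected. It had 10, 4, 1 and 0 counts in juvenile libraries and 11, 5, 9 and 8 in adult libraries, and the groups overlapped. At 0 to 1.15 CPM it was not tested between the ages. *Mirg*, the microRNA host further along the domain, had 0 to 4 counts in juvenile and 0 to 14 in adult libraries, and *Rtl1*, paternally expressed between *Dlk1* and *Rian*, had 0 counts in all 8 control libraries. Adult replicate 4 held the most counts of *Meg3*, *Rian* and *Mirg*.

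*H19*, the noncoding RNA that shares its enhancers and imprinting control region with *Igf2*, was at 35.6, 67, 112 and 30.5 CPM in juvenile and 228, 64.3, 99.7 and 248 CPM in adult cells. The ranges overlapped, and the highest values were those of adult replicates 1 and 4. The log2 fold change was -1.4 ± 0.61 (SE, edgeR adjusted p = 0.272). *Igf2*, the fetal growth factor read from the other parental allele of that domain, was at 71.9, 53.6, 21.9 and 20.6 CPM in juvenile and 12.6, 6.69, 7.42 and 11.3 CPM in adult cells. Its groups did not overlap, and the log2 fold change of 2.13 ± 0.45 (SE) was opposite in sign to that of *H19* (edgeR adjusted p = 0.0344). *Igf2r*, which clears IGF2 from the cell surface, was at 221 ± 18 CPM in juvenile and 221 ± 25.5 CPM (SD, n = 4 each) in adult cells.

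Among the growth regulators, *Cdkn1c*, an inhibitor of cyclin-dependent kinases, was at 70.3, 86.6, 53 and 27.3 CPM in juvenile and 216, 68.1, 89.2 and 94.4 CPM in adult cells. The ranges overlapped, and the log2 fold change was -0.99 ± 0.49 (SE, edgeR adjusted p = 0.338). *Grb10*, an adaptor that damps insulin and IGF signaling, was at 308, 261, 250 and 205 CPM in juvenile and 382, 210, 261 and 283 CPM in adult cells. Its groups lay on top of each other, with a log2 fold change of -0.16 ± 0.17 (SE, edgeR adjusted p = 0.679). *Ndn*, encoding necdin, a protein that holds cells out of the cycle, was at 5.97, 9.32, 7.81 and 2.08 CPM in juvenile and 18.5, 5.91, 9.46 and 18 CPM in adult cells. Here too the ranges overlapped (log2 fold change -1.05 ± 0.42, SE, edgeR adjusted p = 0.18).

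*Peg3*, a zinc-finger protein, was at 138, 155, 187 and 106 CPM in juvenile and 255, 112, 153 and 198 CPM in adult cells, with a log2 fold change of -0.3 ± 0.24 (SE, edgeR adjusted p = 0.567). *Plagl1*, a zinc-finger factor that activates other imprinted genes, was at 48.4, 54.3, 41.9 and 37 CPM in juvenile and 106, 44.2, 51.9 and 77.2 CPM in adult cells. Ranges overlapped for both genes, and the log2 fold change of *Plagl1* was -0.63 ± 0.24 (SE, edgeR adjusted p = 0.174). *Mest*, an enzyme of the hydrolase fold made in growing mesoderm, was at 16.8, 17.6, 24.8 and 17.5 CPM in juvenile and 55.1, 14.7, 29.9 and 40.6 CPM in adult cells. Adult replicate 2 was the lowest of all 8 control libraries, and the log2 fold change was -0.88 ± 0.33 (SE, edgeR adjusted p = 0.161). Without that library *Mest* (log2 fold change -1.13, adjusted p = 0.00277) and *Plagl1* (-0.79, adjusted p = 0.024) were called lower in juvenile cells, which made 4 members. Over all genes, 541 were then called lower and 344 higher.

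The spread among control libraries had a common order. Of the 9 members with a mean of at least 1 CPM in controls, 7 had their highest values in adult replicates 1 and 4, and 8 had their lowest in juvenile replicate 4, which are the libraries with the most and the least cartilage RNA. Among controls, adult replicates 4 and 1 also had the lowest osteoblast marker sums (340000 and 351000 CPM) and juvenile replicate 4 the highest (829000 CPM). The part of cartilage or osteoblast RNA in this order was not tested. With the cartilage marker level as a covariate no member was called, and the fitted log2 fold changes of the 7 members other than *Meg3* and *Rian* were above 0, from 0.03 for *Mest* to 0.58 for *Ndn*. The summed markers were higher in every adult than in every juvenile library, so with only 8 libraries this fit separates age and cartilage RNA poorly. Of the 11 cartilage genes, 10 had a log2 fold change (juvenile over adult) below 0, and *Col10a1* was above 0 (0.66). Only *Col2a1* was called between the ages (log2 fold change -1.92, edgeR adjusted p = 0.035).

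**Figure D2:**
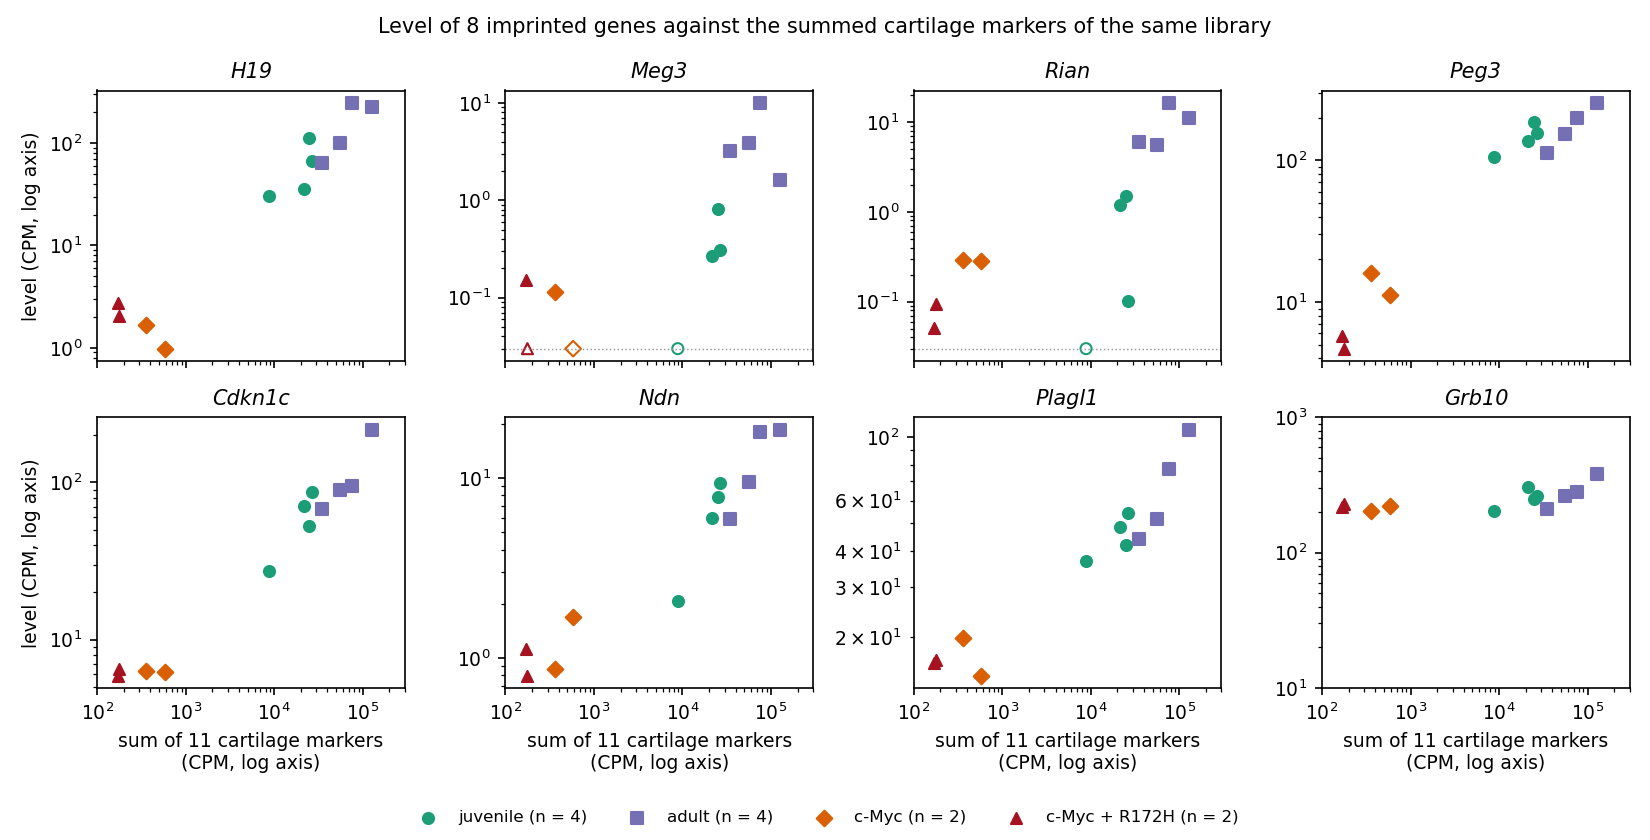
Level of 8 members in CPM (log axis, scaled separately for each gene) against the summed CPM of 11 cartilage markers (log axis) in the same library. Points are the 12 libraries by group, and open points on a dotted line have 0 counts. *H19* and *Peg3* are highest in the 2 adult libraries with the largest cartilage sums and lowest in induced libraries, *Rian* and *Meg3* do not overlap between juvenile and adult libraries, and *Grb10* changes little from 170 to 128000 CPM of cartilage markers.

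To ask what the members do when *c-Myc* is turned on, *c-Myc*-induced were compared with juvenile *Osx*+ osteoblasts. *H19*, *Peg3*, *Cdkn1c*, *Ndn*, *Mest* and *Plagl1* were all lower in the induced cells, by 2.76-fold for *Plagl1* to 48.7-fold for *H19*. *Grb10* and *Rian* were not called, and *Dlk1* and *Meg3* had too few counts to be tested. Of 8 members tested, 6 were lower and 0 higher (edgeR adjusted p under 0.05), where 25% of 12588 genes were called lower and 28.4% higher. The median log2 fold change of the 8 was -1.92 beside 0.04 over all genes. *Rian* passed the filter on low counts only through juvenile replicates 1 and 3 (13 and 11 counts), so a difference was built into its being tested. Nothing is read from its part in the median.

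*H19* was at 0.98 and 1.67 CPM in *c-Myc*-induced osteoblasts, where the lowest juvenile library had 30.5 CPM. The log2 fold change was -5.6 ± 0.7 (SE, edgeR adjusted p = 0.000178). *Peg3* was at 11.3 and 16.1 CPM, below the lowest juvenile value of 106 CPM, with a log2 fold change of -3.49 ± 0.24 (SE), or 11.2-fold (edgeR adjusted p = 1.71e-07). *Cdkn1c* was at 6.21 and 6.33 CPM, below the juvenile minimum of 27.3 CPM, with a log2 fold change of -3.31 ± 0.39 (SE), or 9.93-fold (edgeR adjusted p = 2.05e-05). These genes thus fell to levels that none of the 8 control libraries approached.

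*Ndn* was at 1.68 and 0.863 CPM in *c-Myc*-induced osteoblasts and no lower than 2.08 CPM in juvenile ones, a log2 fold change of -2.36 ± 0.59 (SE, edgeR adjusted p = 0.00497). This call rested on few counts, 36 and 15 in the induced libraries, and without *c-Myc* replicate 2 it was lost (log2 fold change -1.97, adjusted p = 0.0649). *Mest* was at 7.23 and 7.08 CPM against at least 16.8 CPM in juvenile cells (log2 fold change -1.48 ± 0.23, SE, edgeR adjusted p = 0.000142). *Plagl1* was at 14.7 and 19.9 CPM against at least 37 CPM (log2 fold change -1.46 ± 0.19, SE, edgeR adjusted p = 3.29e-05). Neither gene's groups overlapped. The share of all genes without overlap was not counted, so nothing is read from these separations against a background.

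Of the 8 members tested, *Grb10* had the smallest fitted change. It was at 223 and 204 CPM in *c-Myc*-induced osteoblasts, beside 205 to 308 CPM in juvenile ones, and the groups overlapped. The log2 fold change was -0.33 ± 0.13 (SE, edgeR adjusted p = 0.0536), and its sign turned to 0.49 (adjusted p = 0.0459) when counts were scaled by library totals. Without juvenile replicate 4 it was -0.43 (adjusted p = 0.00453). *Rian* had 6 and 5 counts in *c-Myc* libraries and *Meg3* 0 and 2, within the range of the juvenile counts, and *Dlk1* had 12 and 4.

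In *c-Myc* + *R172H* osteoblasts the same 6 members were lower than in juvenile cells, and 0 of 8 were higher, where 26.3% of genes were called lower and 30.4% higher. This comparison shares its juvenile libraries with the preceding one. The median log2 fold change of the 8 members was -2.95 beside 0.08 over all genes. The middle values behind this median include that of *Rian* (-3.15), which passed the filter on low counts only through juvenile libraries. Nothing is read from its part in the median. *Peg3* was at 4.69 and 5.8 CPM, a log2 fold change of -4.85 ± 0.26 (SE), or 28.8-fold (edgeR adjusted p = 2.07e-08). *H19* was at 2.06 and 2.75 CPM (log2 fold change -4.7 ± 0.65, SE, 26.1-fold, edgeR adjusted p = 0.000277). *Cdkn1c* was at 6.47 and 5.9 CPM (log2 fold change -3.31 ± 0.39, SE, edgeR adjusted p = 1.78e-05). The levels of all 3 were below those of every juvenile library.

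*Ndn* was at 0.797 and 1.12 CPM (log2 fold change -2.75 ± 0.61, SE, edgeR adjusted p = 0.00205), *Mest* at 7.03 and 5.8 CPM (-1.62 ± 0.23, adjusted p = 6.54e-05) and *Plagl1* at 16.7 and 16.3 CPM (-1.51 ± 0.19, adjusted p = 2.27e-05). None of these overlapped with juvenile values, but the calls of *Mest* (adjusted p = 0.0521) and *Plagl1* (adjusted p = 0.0809) were lost when counts were scaled by library totals. The share of all genes without overlap was not counted here either, so nothing is read from the missing overlap against a background. *Grb10* was at 230 and 217 CPM (log2 fold change -0.24 ± 0.13, SE, edgeR adjusted p = 0.14), and 0.79 (adjusted p = 0.00299) with library totals. Without juvenile replicate 4 *Grb10* was called lower (-0.34, adjusted p = 0.015). *Rian* had 2 and 1 counts, *Meg3* 0 and 3, and *Dlk1* 0 and 0, which allows up to 0.141 and 0.153 CPM.

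Scaling by library totals moves the median of all genes, to 0.87 for *c-Myc* and 1.12 for *c-Myc* + *R172H* against juvenile cells. With it the split of called genes turned from 3577 higher and 3149 lower to 6803 and 1115 for *c-Myc*, and from 3832 and 3311 to 7668 and 1169 for *c-Myc* + *R172H*. The members lower with library totals were 6 of 8 for *c-Myc* and 4 of 8 for *c-Myc* + *R172H*, and *Grb10* was then called higher in each.

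The members moved in the direction of the cartilage markers here as well: all 11 of these genes were called lower in each induced group than in juvenile cells, with median log2 fold changes of -5.67 and -7.02. All 11 osteoblast genes were lower too (medians -2.04 and -2.72). Of 6 marrow stromal and fibroblast genes tested, 5 were called lower with *c-Myc* and 6 with *c-Myc* + *R172H* (medians -1.29 and -1.93), and the 8 listed summed to 534 to 718 CPM in juvenile and 151 to 245 CPM in induced libraries. With *c-Myc*, 1 of 3 blood genes tested was called, the myeloid marker *Lyz2*, which was higher (log2 fold change 4.23, edgeR adjusted p = 0.00038). Of 5 tendon and pericyte genes tested, 3 were called lower and 1 higher, the pericyte marker *Rgs5* (3.5, edgeR adjusted p = 0.000346). The sums of the tendon and pericyte list overlapped, at 20.8 to 38.9 CPM in juvenile and 31.7 to 38.2 CPM in *c-Myc* libraries. The part of any of these cell types in the members' lower levels was not tested.

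**Figure D3:**
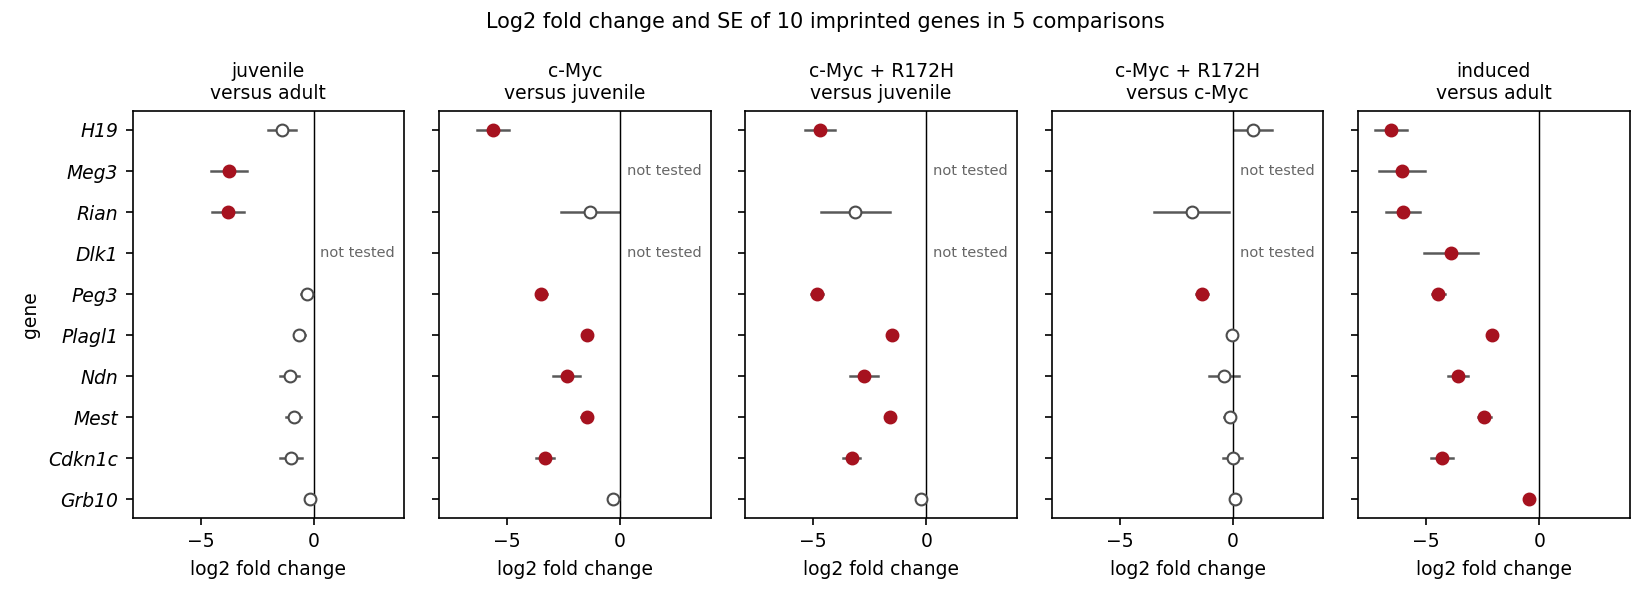
Log2 fold change (x axis) with its SE of each member (rows) in the 5 comparisons (panels). Filled points passed an adjusted p of 0.05, open points did not, and members with too few counts are marked as not tested. In the panels of induced against control cells the points lie left of 0 for *H19*, *Peg3*, *Plagl1*, *Ndn*, *Mest* and *Cdkn1c*. *Peg3* alone is filled between the induced groups. The points of *Dlk1* and, against adult cells, *Meg3* depend on libraries at or near 0 and are no measure of size.

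Direct comparison of the induced groups asked whether mutant p53 adds to the change. *Peg3* was lower in *c-Myc* + *R172H* (4.69 and 5.8 CPM) than in *c-Myc* osteoblasts (11.3 and 16.1 CPM), with no overlap and a log2 fold change of -1.36 ± 0.26 (SE), or 2.57-fold (edgeR adjusted p = 0.0482). It was 1 of 8 members called lower and 0 were called higher, where 0.461% of genes tested were called lower and 0.00794% higher. The call lay at the threshold: it was lost with library totals (adjusted p = 0.325) and with all 12 libraries in 1 fit (adjusted p = 0.342), and also without juvenile replicate 1 or 2, *c-Myc* replicate 2 or either *c-Myc* + *R172H* library (adjusted p from 0.0963 to 0.413). The fold change ranged from -1.63 to -1.11 over 17 alternatives. Of the 11 cartilage genes 10 had a log2 fold change below 0 and 1 above (median -1.32), and 0 were called between these groups. Their sums were 359 to 581 CPM in *c-Myc* and 170 to 177 CPM in *c-Myc* + *R172H* libraries. Of the 11 osteoblast genes 10 had a log2 fold change below 0 and 1 was called, *Col1a1* (edgeR adjusted p = 0.0307), and the stromal marker *Lepr* was called lower (adjusted p = 0.00983). The part of these cell types in the lower *Peg3* was not tested.

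The other 7 members tested showed no called difference between the induced groups, and *Dlk1* and *Meg3* were not tested. *H19* was higher in both *c-Myc* + *R172H* libraries than in the *c-Myc* libraries, but the log2 fold change of 0.9 ± 0.83 (SE) was not called (edgeR adjusted p = 1). For *Cdkn1c* it was 0 ± 0.42, for *Plagl1* -0.04 ± 0.21, for *Grb10* 0.09 ± 0.15 and for *Mest* -0.14 ± 0.25 (SE, edgeR adjusted p = 1 for each). *Ndn* had a log2 fold change of -0.4 and *Rian*, with at most 6 counts in an induced library, of -1.82. With 2 libraries in each group, differences within these errors could not be detected.

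To place the induced cells against both ages, the mean of the induced groups was set against adult *Osx*+ osteoblasts in a fit of all 12 libraries. All 10 members were tested and 10 were lower in the induced cells, with 0 higher, where 29.7% of 13005 genes tested were called lower and 30% higher. The median log2 fold change was -4.09, or -3.93 with *Dlk1* at the bound its 0 counts allow (3 counts a library), beside 0.02 over all genes. *Meg3* and *Dlk1* did not pass the filter on low counts without the adult libraries, so a difference was built into their being tested. The same holds for *Rian*, which passed only through control libraries. Nothing is read from the calls of *Meg3*, *Dlk1* and *Rian* against the background or from their part in the median. *H19* was 93-fold lower than in adult cells (log2 fold change -6.54 ± 0.72, SE, edgeR adjusted p = 5.2e-05) and *Rian* 64.3-fold (-6.01 ± 0.76, adjusted p = 2.94e-06). *Rian* had only 6 and 5 counts in *c-Myc* and 2 and 1 in *c-Myc* + *R172H* libraries, so the size of its fold is uncertain. For *Peg3* the difference was 21.9-fold, for *Cdkn1c* 19.4-fold, for *Ndn* 12-fold, for *Mest* 5.35-fold and for *Plagl1* 4.27-fold (edgeR adjusted p from 2.59e-08 to 4.87e-05). *Meg3* had 16 to 95 counts in adult and 0 to 3 in induced libraries and was tested only through the adult ones, so no fold is given for it. None of these 8 members overlapped between adult and induced libraries. The level of the 6 members called against juvenile cells was thus below that of both ages. The share of all genes without such overlap was not counted, so nothing is read from these 8 against a background.

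*Grb10* (log2 fold change -0.43 ± 0.15, SE, adjusted p = 0.0228) and *Dlk1* (edgeR adjusted p = 0.0105) overlapped between the adult and the induced libraries. *Dlk1* had 5 to 11 counts in adult and 0 to 12 in induced libraries, so its fold change depends on the libraries at 0 and is not given. Without any 1 of *c-Myc* replicate 2 and the *c-Myc* + *R172H* libraries, *Dlk1* was not called (adjusted p from 0.0561 to 0.0642). *Grb10* was not called without adult replicate 1 or any 1 of the 4 induced libraries (adjusted p from 0.05 to 0.104), nor without adult replicates 1 and 4 together (-0.19, adjusted p = 0.228), and was at 0.25 with library totals (adjusted p = 0.296). With adult replicates 1 and 4 left out, 8 of 9 members tested were called lower, all but *Grb10*, and *Dlk1* was not tested. Over all genes, 3610 were then called lower and 3582 higher.

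A further 57 imprinted genes from a hand-written list were in the table, and their directions were mixed. Between the ages, 34 were tested and 2 were higher in juvenile cells: *Igf2* and *Slc38a4*, an amino acid transporter, at 41.3 ± 11.1 CPM in juvenile and 20.4 ± 6.83 CPM (SD, n = 4 each) in adult cells (log2 fold change 1.01 ± 0.25, SE, edgeR adjusted p = 0.0287). None was lower, whereas with library totals 0 were higher and 1 lower. Their median log2 fold change was 0.11, while that of the 9 tested members was -0.99. Without juvenile replicate 2 or adult replicate 3 or 4, 0 of them were called.

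In *c-Myc*-induced cells 37 were tested, of which 17 were lower and 7 higher than in juvenile cells, and in *c-Myc* + *R172H* cells 18 were lower and 8 higher. With library totals the split turned to 9 lower and 15 higher, and 9 lower and 16 higher. *Igf2* fell to 1.49 and 1.44 CPM with *c-Myc* (log2 fold change -4.91 ± 0.65, SE, edgeR adjusted p = 0.000127) and 0.891 and 1.63 CPM with *c-Myc* + *R172H*, so both products of the *H19* domain were low in induced cells. *Igf2r* stayed at 199 to 227 CPM in the 4 induced libraries, beside 198 to 240 CPM in juvenile ones (log2 fold change -0.13 ± 0.09, SE, edgeR adjusted p = 0.284, for *c-Myc*). *Magel2*, of the necdin family and from the same domain as *Ndn*, was at 4.74 ± 1.75 CPM (SD, n = 4) in juvenile cells and had 0 or 1 counts in each induced library. *Zim1* and *Usp29*, neighbours of *Peg3*, had 6 to 61 and 5 to 15 counts in juvenile libraries and at most 3 and 2 in induced ones. Other genes of the *Ndn* region, chosen after their values were seen, were not called lower: *Peg12* (log2 fold change 0.18) and *Mkrn3* (-0.62) were not called with *c-Myc*, and *Snrpn* was called higher (1.96, edgeR adjusted p = 0.0171).

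*Htr2a*, a serotonin receptor, was at 2.88 ± 1.12 CPM (SD, n = 4) in juvenile cells, 0.957 ± 0.296 CPM (SD, n = 2) with *c-Myc* and 1 count in each *c-Myc* + *R172H* library. *Gatm*, which makes the precursor of creatine, went the other way, from 0 counts in all juvenile libraries to 21 to 26 in *c-Myc* and 7 to 10 in *c-Myc* + *R172H* libraries. Chosen after their values were seen, *Dcn* (decorin, a matrix proteoglycan) and *Peg10* fell with *c-Myc* by 2.89 and 2.37 on the log2 scale (edgeR adjusted p = 3.39e-07 and 8.7e-06), and *Slc38a4* rose to 97.5 ± 13 CPM (SD, n = 2, log2 fold change 1.16 ± 0.19, SE, edgeR adjusted p = 0.000249). *Dcn* was also the only gene of the list called between the induced groups, at 65.6 ± 12.6 CPM with *c-Myc* and 21 ± 5.62 CPM (SD, n = 2 each) with *c-Myc* + *R172H* (edgeR adjusted p = 0.00974). Without *c-Myc* replicate 2 or *c-Myc* + *R172H* replicate 2 that call was lost.

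Against adult cells, 41 of the list were tested, of which 22 were lower and 8 higher in induced cells (14 higher and 15 lower with library totals). The rule for named genes took *Magel2*, *B830012L14Rik*, *Zim1* and *Slc22a3*, whose order by size is not read, since fitted changes of genes at or near 0 depend on the prior count. Of these, *Magel2* was at 3.71 ± 1.66 CPM and *Zim1* at 3.34 ± 1.91 CPM (SD, n = 4) in adult cells, while *B830012L14Rik* had 0 to 12 and *Slc22a3* 0 to 13 counts in adult libraries. In the induced libraries *B830012L14Rik* had 0 counts and *Slc22a3* at most 2.

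**Figure D4:**
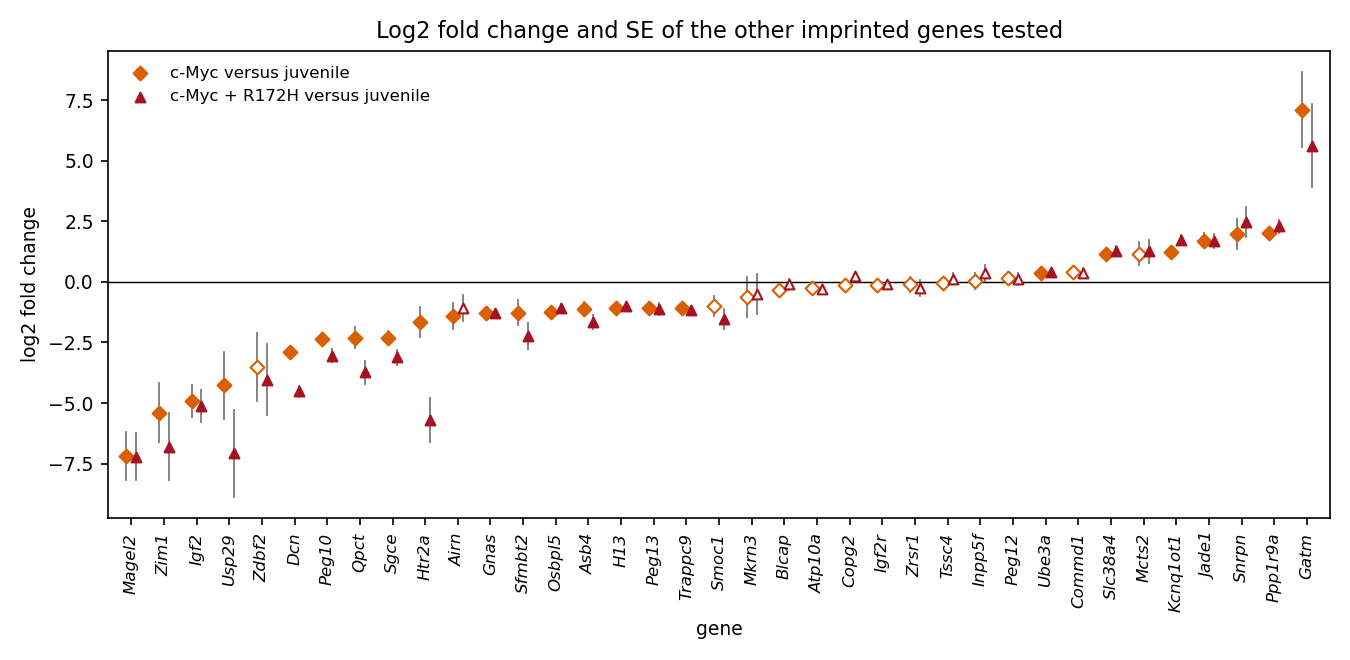
Log2 fold change (y axis) with its SE of the 37 other imprinted genes tested (x axis, in order of the *c-Myc* value) in *c-Myc* and *c-Myc* + *R172H* osteoblasts, each against juvenile cells. Filled points passed an adjusted p of 0.05. *Igf2*, *Magel2*, *Zim1*, *Usp29* and *Dcn* lie at the low end and *Gatm* at the high end, where *Usp29* in *c-Myc* + *R172H* and *Gatm* in juvenile cells had 0 counts, so that these points are no measure of size.

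A list of 13 growth genes that are not imprinted was compared in the same way. Between the ages, *Gpc3*, a proteoglycan that restrains growth, was the 1 gene called of 9 tested, at 6.66 ± 1.35 CPM in juvenile and 1.79 ± 0.84 CPM (SD, n = 4 each) in adult cells (log2 fold change 1.89 ± 0.42, SE, edgeR adjusted p = 0.0157). This call was lost without juvenile replicate 1 or 2. Against juvenile cells, 3 of 11 were higher and 3 lower with *c-Myc*, and 4 were higher and 4 lower with *c-Myc* + *R172H*. With library totals this became 4 higher and 1 lower, and 5 higher and 1 lower. *Mdk*, the growth factor midkine, fell from 13.4 ± 6.15 CPM (SD, n = 4) to 1.48 ± 0.437 CPM with *c-Myc* and 0.753 ± 0.129 CPM (SD, n = 2 each) with *c-Myc* + *R172H*. *Igf2bp1*, which binds *Igf2* mRNA, was at 1.26 ± 0.851 CPM in juvenile and at most 0.141 CPM in each induced library, whereas its relative *Igf2bp2* rose from 7.33 ± 3.99 CPM to 29.1 ± 2.18 CPM with *c-Myc* (log2 fold change 1.92 ± 0.31, SE, edgeR adjusted p = 0.000219). *Sox11*, a transcription factor of progenitor cells, was at 1.51 ± 0.564 CPM in juvenile and 0.311 ± 0.224 CPM with *c-Myc* + *R172H* (edgeR adjusted p = 0.0304). Against adult cells 4 of 12 were higher and 3 lower in induced cells, with *Hmga2*, a chromatin protein of growing tissue, at 1.49 ± 0.798 CPM in adult cells and at most 0.0575 CPM in induced libraries.

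The genes whose pattern over the 12 libraries was most like that of a member were sought among 11584 genes, by the root mean square difference of log2 CPM after each gene was centred. For *Peg3* they were *Col11a1*, a cartilage collagen gene (0.24), and *Loxl3*, a lysyl oxidase-like gene (0.34). For *Cdkn1c* they were *Capn6* (0.21) and *Mfge8* (0.31), for *H19* *Ecrg4* (0.6) and *Aff3* (0.61), and for *Mest* *Dok1* (0.24) and *Fads2* (0.25). For *Plagl1* they were *Btg2* (0.15), which slows the cell cycle, and *Fry* (0.17), and for *Grb10* *Akt2* (0.13), a kinase of insulin signaling, and *Slc39a14* (0.14). The points share the contrast of induced with control libraries, so these values describe likeness over that contrast for the most part.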

How the data were processed

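mGFP+ metaphyseal cells, gated to lack CD31, CD45 and TER119, were sequenced as single-end reads from a directional library kit. Per the labels and methods, the authors used bcl2fastq 2.20, cutadapt 4.6, STAR 2.7.11a on mm10 and HTSeq 2.0.5, and deposited raw counts per gene without normalization. Alignment and counting used different GENCODE releases. Coordinates and exon lengths were taken from GENCODE (GRCm38, which is mm10) and promoters from RefSeq.

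Libraries were grouped by their titles. Counts of replicates differed by more than sampling noise (chi-square per degree of freedom of at least 5.45). For induced libraries the sources do not say whether replicates came from separate mice, and p-values measure the spread between libraries. Members and gene lists were chosen with earlier results of these data known.

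Tests used R 4.3.3 with edgeR 4.0.16 (TMM scaling, default filter on low counts, robust quasi-likelihood F test, Benjamini-Hochberg adjustment over all genes, calls at an adjusted p under 0.05). The age fit held 8 libraries, the fit of juvenile and induced cells 8, and the fit for induced against adult cells 12. The SE was approximated from the size of the log2 fold change and F, as their quotient after the root of F was taken. CPM use TMM factors over 12 libraries. The share of all genes without overlap between groups was not counted in any comparison, so no lack of overlap is read against a background. The code was tested on simulated data. Alternatives were RLE scaling, library totals, no filter, at least 10 counts in every library, DESeq2 1.42.0, removal of 3 very abundant genes, a replicate block, other sets of groups in the fit, a minimum log2 change of 1 in size and each library left out. The fits with the cartilage score and without adult replicates 1 and 4 were chosen after seeing the data. Named beside the members were *Igf2*, *Igf2r*, *Mirg*, *Rtl1* and, in each comparison, up to 4 other imprinted and 3 growth genes with the largest called change, and for members with a mean of at least 10 CPM the 2 genes of most alike pattern among genes with a mean of at least 1 CPM. *Copg2* and the genes named as such were chosen after their values were seen.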

Additional observations from a re-analysis of the deposited data

Results flagged for a closer look

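Of 20 sets of 4 control libraries (10 members in juvenile and in adult cells), 1 held a library far from the other 3: *Mest* in juvenile replicate 3, at 24.8 CPM beside 16.8, 17.6 and 17.5 CPM in the others. The gap to the nearest library was 0.901 of the whole range, above Dixon's critical value for groups of this size. Chance sets apart about 1 in 20 such sets.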

How the results depend on the processing

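For the 6 members lower than juvenile cells in both induced groups, the log2 fold change stayed below 0 under every alternative run, while the calls of *Plagl1* (adjusted p = 0.0809) and *Mest* (0.0521) for *c-Myc* + *R172H* were lost with library totals and that of *Ndn* for *c-Myc* without *c-Myc* replicate 2 (0.0649). Between the ages, 0 members were called with at least 10 counts in every library (*Meg3* and *Rian* were then not tested), with the cartilage score and without adult replicates 1 and 4, and 1 to 4 with single libraries left out. With the cartilage score the fitted log2 fold changes turned above 0 for *H19* (0.14), *Peg3* (0.51), *Plagl1* (0.17), *Grb10* (0.39), *Mest* (0.03), *Cdkn1c* (0.39) and *Ndn* (0.58), and without adult replicates 1 and 4 for *Peg3* (0.14) and *Grb10* (0.12); *Grb10* ranged from -0.27 to 0.02 with single libraries left out. Other imprinted genes called between the ages were 1 lower with library totals, 1 higher with no filter or those 2 libraries left out, and 0 to 2 with single libraries left out. Growth genes called were 2 with no filter, 0 with at least 10 counts, the cartilage score or those 2 libraries left out, and 0 to 2 with single libraries left out. All genes called between the ages numbered 581, but 977 with no filter, 1000 with DESeq2, 1094 with all 12 libraries, 222 without those 2 libraries and 63 with the cartilage score; with library totals 53 were higher and 793 lower in place of 214 and 367.

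With library totals *Grb10* turned to 0.49 (*c-Myc*) and 0.79 (*c-Myc* + *R172H*) against juvenile and 0.25 against adult cells, and *Plagl1* and *Mest* between the induced groups to 0.18 and 0.07. Between the induced groups 0 members were called with library totals or all 12 libraries, and 0 to 1 with single libraries left out, where *Plagl1* ranged from -0.28 to 0.17 and *Ndn* from -0.81 to 0.13. Other imprinted genes called there were 3 with no filter, 3 with the replicate block, 2 with the 2 groups alone, 0 with all 12 libraries and 0 to 1 with single libraries left out, and 1 growth gene was called with the 2 groups alone. All genes called there numbered 59, but from 12 with library totals to 629 with the 2 groups alone. A minimum log2 change of 1 in size left 4330 of 6726 genes (*c-Myc*) and 4724 of 7143 (*c-Myc* + *R172H*) against juvenile cells, and the same 6 members in each. Growth genes called for *c-Myc* + *R172H* against juvenile cells were 5 to 9 with single libraries left out, and for induced against adult cells 4 with at least 10 counts. The cause of these changes was not tested. Where a left-out library leaves 1 in a group, that library is assumed to vary like the others.

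The names of the adult libraries bear numbers other than their titles, so only title numbers were used for the block. These did not pair the samples: deviations of same-numbered juvenile and adult libraries correlated at -0.054 to 0.04, that of the induced groups at 0.14, and 1 of 4 juvenile libraries correlated best with its own number. With the replicate block 2 members were called between the ages, 7 in each induced group against juvenile cells (with *Grb10* at -0.48 and -0.39, adjusted p = 4.58e-05 and 0.000272), 1 between the induced groups and 10 against adult cells, while all genes called between the induced groups rose from 59 to 326. All genes called with the block numbered 434 between the ages and 7105 against adult cells. Against juvenile cells they numbered 7684 for *c-Myc* and 7998 for *c-Myc* + *R172H*. Low counts limit *Meg3*, *Rian* and *Dlk1*.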
